A study of Mus musculus with 29 samples.

Results

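Megakaryocyte-erythrocyte progenitors (MEPs), the bone marrow cells from which platelets and red cells arise, were compared in a 2 by 2 arrangement of genotypes to ask where the effect of JAK2 V617F on RNA depended on Ezh2. The 4 groups were chosen by sample title and held 19 of the 29 libraries of the series. All mice carried the SclCre transgene, which the labels also spell ScleCre. The control group was Ezh2 +/+ without V617F (n = 5, 2 male and 3 female), and the Ezh2 -/- group was without V617F (n = 4, 1 male and 3 female). The V617F group was SclCre JAK2V617F and Ezh2 +/+ (n = 4, 1 male and 3 female), and the V617F Ezh2 -/- group carried both changes (n = 6, all female). Cre therefore stood in the controls as well, and no group lacked it. Scl, the gene that names the Cre, is active in blood stem and progenitor cells and in vessel endothelium, and the share of sorted cells in which it recombined Ezh2 is not given. The ages of the mice, the sorting gates, the part of Ezh2 removed and the form of the V617F allele are not stated. The labels say only "replicate". The control, Ezh2 -/- and V617F groups hold libraries labelled with both sexes, so not all libraries of these groups come from 1 animal, and whether each is a separate mouse is not stated. The tests weigh effects against the spread among these libraries, part of which may be technical. The 10 Ezh2 +/- libraries entered the fit to share its estimate of the spread.

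EZH2 is the catalytic subunit of Polycomb repressive complex 2 (PRC2), which places methyl groups on lysine 27 of histone H3 and keeps many developmental genes silent in blood cells. JAK2 transmits signals of the erythropoietin receptor and other cytokine receptors to STAT factors, and the V617F change makes the kinase active without the hormone. It is the main driver of the myeloproliferative neoplasms, and loss of EZH2 occurs beside it in myelofibrosis. The interaction asks whether both changes together give the sum of their separate effects on a log2 scale. It is the V617F effect in Ezh2 -/- cells minus the V617F effect in Ezh2 +/+ cells. A negative value means that V617F raised a gene less, or lowered it more, without Ezh2, and a positive value means the reverse. Only this difference was tested, and the V617F and Ezh2 effects behind it are given as estimates with no test.

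The 19 libraries held 31.6 to 59.4 M counts each, with a median of 45.57 M. Between 15250 and 16387 genes were detected per library. Levels are CPM, counts scaled by library size, and 3 counts, the upper limit that a count of 0 allows, correspond to 0.0505 to 0.095 CPM per library. Such floors cover counting error only. After a log2 value ± is the SE of the fit, and after a CPM mean it is the SD over libraries. The MEP genes Gata1, Klf1, Tal1, Zfpm1, Gfi1b, Epor and Kit were present in every group, with Gata1 at 241 ± 20.012 CPM in controls, 283 ± 19.2 in Ezh2 -/-, 231 ± 34.5 in V617F and 229.6 ± 18.7 in V617F Ezh2 -/- libraries. The targeted gene followed the labels, since Ezh2 measured 303 ± 19.998 CPM in controls, 73.4 ± 5.89 in Ezh2 -/-, 289 ± 31.2 in V617F and 55 ± 3.1 in V617F Ezh2 -/- libraries. The remaining Ezh2 counts do not show which part of the gene they cover. A pair of libraries stood apart before any result. V617F replicate 1, labelled female, had 0.985 CPM of Xist and 0 counts on the Y-linked genes Ddx3y and Kdm5d, whereas the other 14 libraries labelled female had 1574 to 2574 CPM of Xist. This library was kept under its label, as female in the sex term and in the fit of female libraries. Control replicate 5 was the highest control in the lists of interferon-stimulated, T and NK cell, monocyte, stem cell and platelet genes.

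Of 13928 genes tested, 2663 (19.1%) passed an adjusted p of 0.05 for the interaction. For 1180 genes (8.47%) V617F had a higher effect without Ezh2, and for 1483 (10.6%) a lower one. At an unadjusted p under 0.05 there were 5397 of the 13928 genes, and DESeq2 called 3533 of them, 1672 higher and 1861 lower. The list counts given below at that p or by DESeq2 are to be read against these totals. The median interaction over all genes was 0.03 log2, with quartiles at -0.22 and 0.40. The estimates took different shapes in each direction. Among the 1483 genes called lower, 1357 (91.5%) had a positive V617F estimate in Ezh2 +/+ and a negative one in Ezh2 -/- cells, and 90 had an interaction of at least 1 log2 in size. Most of these opposite signs involved small estimates, and only 24 of the 1483 (1.62%) had opposite estimates that were both at least 0.5 log2 in size. In 714 of the 1483 (48.1%) the V617F Ezh2 -/- group lay farthest from the mean of the other 3 groups, against 37.4% of all genes tested. Among the 1180 called higher, 852 (72.2%) had a negative V617F estimate in Ezh2 +/+ and a positive one in Ezh2 -/- cells, and 526 were at least 1 log2 in size. Opposite estimates that were both at least 0.5 log2 in size occurred in 195 of the 1180 (16.5%). In 379 of the 1180 (32.1%) the control group lay farthest from the others, against 21.8% of all genes. These shares describe genes already chosen by the interaction and carry no test.

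**Figure D1:**
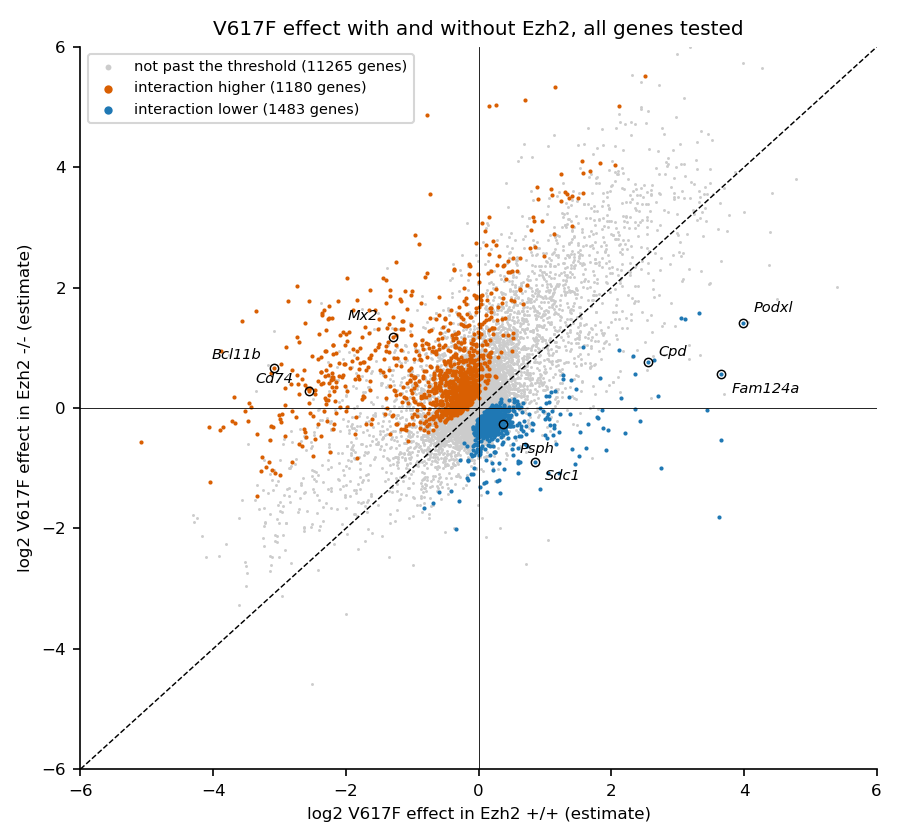
Estimated log2 V617F effect in Ezh2 +/+ (x axis) and in Ezh2 -/- MEPs (y axis) for the 13928 genes tested, with genes called higher in orange, genes called lower in blue and 8 named genes circled. Points on the dashed line have an interaction of 0; Podxl, Fam124a and Cpd lie far to its right with positive values on both axes, Mx2, Cd74 and Bcl11b lie above it on the left, and 16 genes fall outside the range of -6 to 6 shown.

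The number of calls rested strongly on which libraries were used. In the female libraries alone, 128 of 14181 genes (0.903%) passed, 87 higher (0.613%) and 41 lower (0.289%), and 126 of them were among the 2663. Leaving out 1 library at a time gave between 297 and 4633 calls. The 297 (151 higher and 146 lower, of 14060 tested) came without Ezh2 -/- replicate 3. The 4633 (2224 higher and 2409 lower, of 14034 tested) came without V617F replicate 1. The list counts given below for such fits are to be read against these totals. Calls numbered 533 without control replicate 1, 951 without V617F replicate 4, 1068 without control replicate 5, 1391 without V617F Ezh2 -/- replicate 2 and 1451 without V617F replicate 3. They numbered 1665 without V617F replicate 2, 1716 without Ezh2 -/- replicate 1 and 1763 without V617F Ezh2 -/- replicate 4. Without both control replicate 5 and V617F replicate 1, a choice made after seeing the data, 3140 genes passed, 1488 higher and 1652 lower. A set of 292 genes (2.1%) passed in all 19 of these fits. In all 27 alternative analyses, which also changed the model, scaling, filter, sex term and covariates, 91 genes (0.653%) passed, 57 higher (0.409%) and 34 lower (0.244%).

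**Figure D2:**
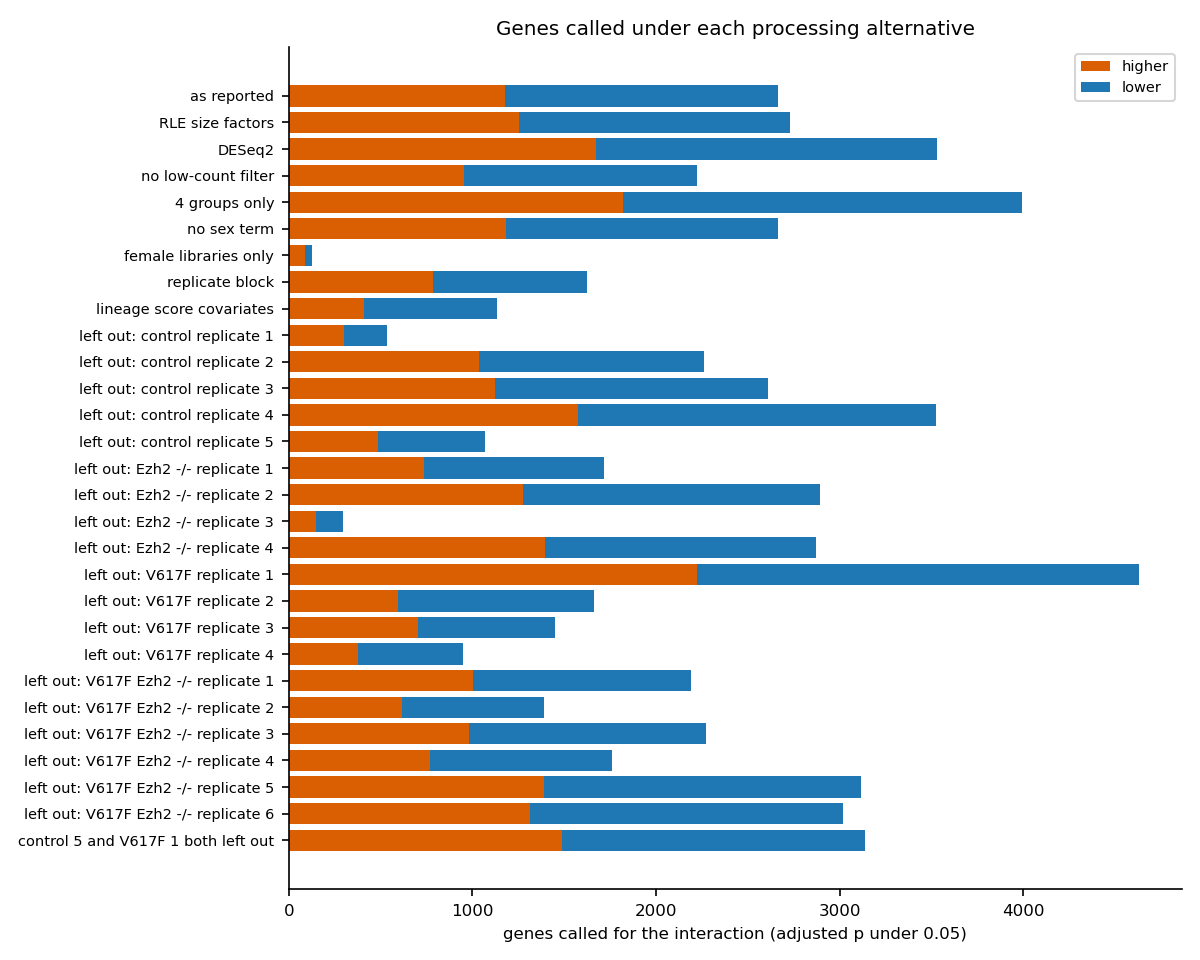
Genes called for the interaction (x axis, adjusted p under 0.05) under each processing alternative (rows), split into higher (orange) and lower (blue) calls. The total is 2663 as reported, 128 in female libraries alone, 297 without Ezh2 -/- replicate 3 and 4633 without V617F replicate 1.

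Podxl had the lowest adjusted p of all genes, and its interaction was negative although both changes had positive estimates. Podxl encodes podocalyxin, a sialomucin of the CD34 family on the cell surface. It measured 14.7, 15.4, 21, 13.7 and 14.1 CPM in the 5 controls. The 4 Ezh2 -/- libraries had 132, 74.7, 134 and 133 CPM and the 4 V617F libraries 212, 218, 322 and 252 CPM. In the 6 V617F Ezh2 -/- libraries it ranged from 267 to 390 CPM (median 319). Every library with either change thus lay above every control, and the V617F and V617F Ezh2 -/- ranges overlapped. The V617F estimate was 3.99 ± 0.21 log2 in Ezh2 +/+ and 1.42 ± 0.19 in Ezh2 -/- cells, and the interaction was -2.57 ± 0.27 (adjusted p = 7.07e-06). The 2 single estimates sum to 6.89 log2, whereas the group with both changes lay 4.32 log2 above the controls. Over the 27 alternatives the interaction stayed between -2.75 and -2.31, with adjusted p from 4.47e-18 to 0.00152. Of the other family members tested none passed, and Cd34 had 3.698 ± 1.34 (adjusted p = 0.053). Cd34 is the stem and progenitor cell antigen of this family, and control replicate 5 at 42.7 CPM stood far from the 4 other controls, at 1.16 to 3.59 CPM.

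Fam124a, a gene of little known function, followed the same pattern. Controls held 1.36, 1.41, 1.25, 1.64 and 1.83 CPM. The Ezh2 -/- libraries held 17.8, 9.27, 16.7 and 13.5 CPM and the V617F libraries 16.3, 18.6, 22.4 and 19 CPM. The group with both changes ranged from 15.2 to 30.7 CPM (median 20.6), so that all 3 mutant groups overlapped and none overlapped the controls. The interaction was -3.10 ± 0.40 (adjusted p = 0.000188), with V617F estimates of 3.66 ± 0.31 in Ezh2 +/+ and 0.56 ± 0.28 in Ezh2 -/- cells. It ran from -3.28 to -2.59 over the alternatives. PRC2 is known to bind CG-rich promoters, and the 250 bases before the Fam124a start are printed for that reason, from RefSeq on build GRCm38.p6 at chr14:62555487-62555736, plus strand, with each CG pair in capitals.
Fam124a: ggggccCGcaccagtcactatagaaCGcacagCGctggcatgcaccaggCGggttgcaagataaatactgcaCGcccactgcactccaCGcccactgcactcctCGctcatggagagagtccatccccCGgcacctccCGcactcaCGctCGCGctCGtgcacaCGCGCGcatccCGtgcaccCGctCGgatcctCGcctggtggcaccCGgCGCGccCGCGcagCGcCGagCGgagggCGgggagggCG
This stretch held 30 CG pairs, and 10.9% of the 13896 promoters of tested genes held as many or more. The same stretch of Cpd, a gene of like profile described below, held 14, and 54.6% of those promoters held as many or more. The median was 15 pairs among tested genes and 12 among the 40 promoters matched for the 34 genes called lower in all alternatives, 29 of which had an entry. The table holds no entry for Podxl. No chromatin data bear on these counts.

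Cpd, which encodes the membrane-bound carboxypeptidase D, had a like profile. It measured 41.4, 42, 58.4, 46.2 and 42.5 CPM in controls, 127, 116, 126 and 129 CPM in Ezh2 -/- libraries and 208, 247, 343 and 289.5 CPM in V617F libraries. With both changes it ranged from 176 to 283 CPM (median 201). V617F thus gave a 2.56 ± 0.19 log2 estimate in Ezh2 +/+ and 0.77 ± 0.18 in Ezh2 -/- cells, and the interaction was -1.79 ± 0.25 (adjusted p = 0.000396). Cda, the cytidine deaminase gene, measured 1.4 ± 0.0948 CPM in controls, 6.55 ± 1.17 in Ezh2 -/-, 7.24 ± 1.08 in V617F and 9.83 ± 3.43 in V617F Ezh2 -/- libraries, with an interaction of -1.79 ± 0.33 (adjusted p = 0.00562). Plek2, a pleckstrin family gene linked to the red cell lineage and to JAK2 signalling, measured 1.48 ± 0.398 CPM in controls, 7.16 ± 1.34 in Ezh2 -/-, 7.54 ± 0.575 in V617F and 13.3 ± 2.86 in V617F Ezh2 -/- libraries, with an interaction of -1.46 ± 0.27 (adjusted p = 0.00562). Sfrp4, a secreted antagonist of Wnt signalling, had 5.92 ± 0.918 CPM in controls, 18 ± 3.15 in Ezh2 -/-, 19.9 ± 2.69 in V617F and 15.8 ± 3.15 in V617F Ezh2 -/- libraries, and its interaction was -1.93 ± 0.31 (adjusted p = 0.00183). B3gnt7, a glycosyltransferase gene, had a V617F estimate of 3.05 in Ezh2 +/+ and 1.49 in Ezh2 -/- cells and an interaction of -1.57 ± 0.50 (adjusted p = 0.0354). B3gnt7 passed in 16 of the 27 alternatives, whereas Cpd, Cda, Plek2 and Sfrp4 passed in all of them. By correlation of log2 CPM over the 19 libraries, the 5 genes most like Podxl were Fam124a (r = 0.98), Cpd (0.97), Cda (0.96), Plek2 (0.96) and Fabp5 (0.96). All 19 points share the 4 groups, and within groups these r were 0.62, 0.76, 0.46, 0.46 and 0.52.

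**Figure D3:**
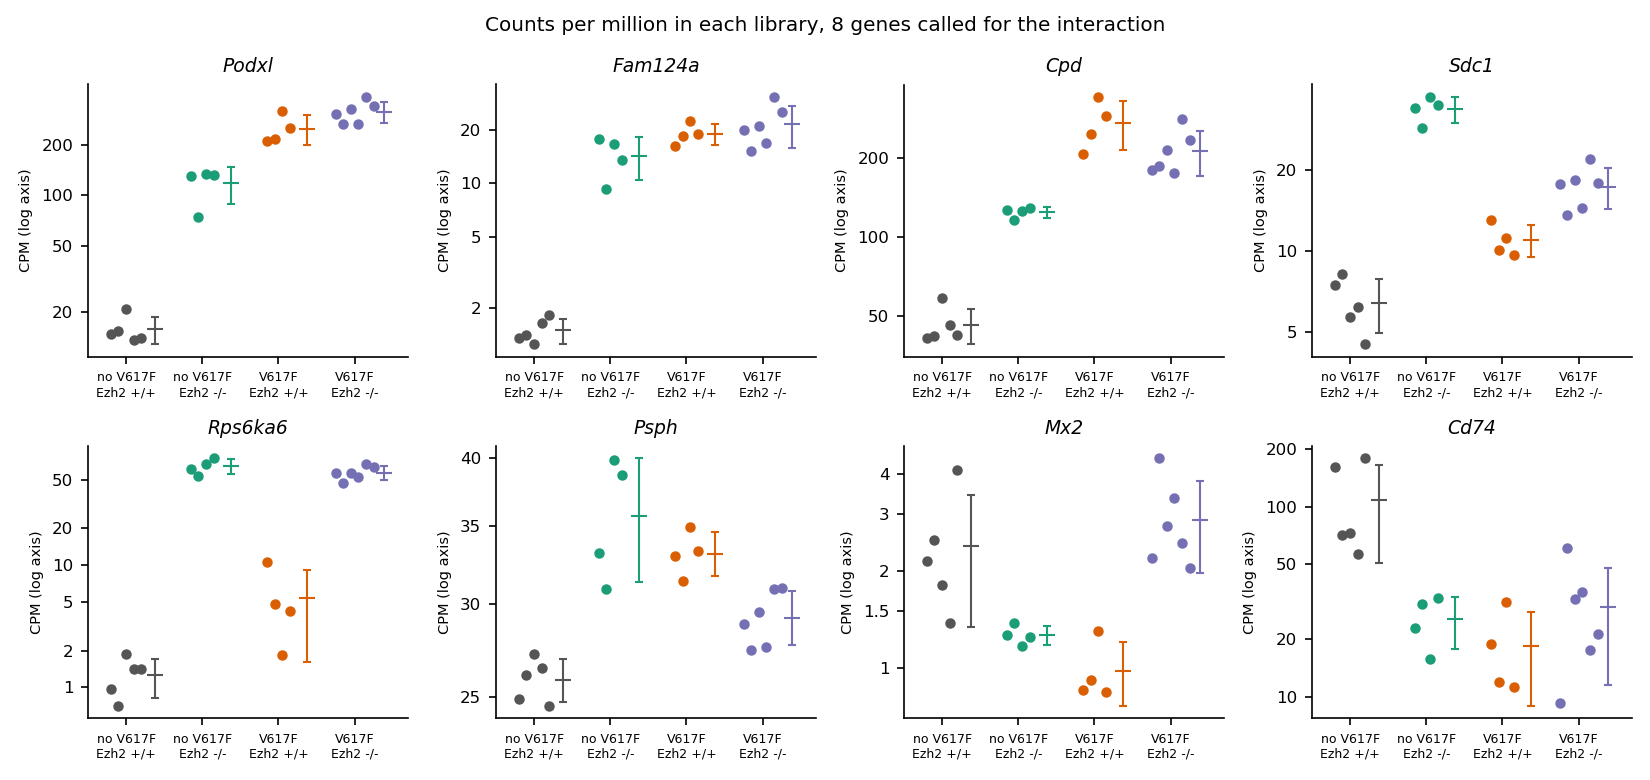
CPM (y axis, log scale) of 8 genes in each library of the 4 genotypes (x axis); points are libraries, and the bar and whiskers beside them are the mean and SD. Podxl, Fam124a and Cpd are high in all 3 mutant groups, Sdc1 is highest in Ezh2 -/- alone, Rps6ka6 is high wherever Ezh2 is lost, and Mx2 is low in both singly changed groups.

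In Sdc1, Rps6ka6 and Rnf128 the V617F estimate was positive with Ezh2 and negative without it. Sdc1 encodes syndecan-1, a heparan sulphate proteoglycan. It measured 7.47, 8.19, 5.68, 6.17 and 4.48 CPM in controls and 33.8, 28.5, 37.3 and 34.7 CPM in Ezh2 -/- libraries. The V617F libraries had 13, 10.1, 11.2 and 9.63 CPM, and the libraries with both changes ranged from 13.6 to 22 CPM (median 17.8). None of the 4 ranges overlapped another. The interaction was -1.73 ± 0.24 (adjusted p = 0.000396), from a V617F estimate of 0.84 in Ezh2 +/+ to one of -0.89 in Ezh2 -/- cells. Rps6ka6, a gene of the RSK kinase family, measured 1.27 ± 0.45 CPM in controls, 64.6 ± 8.85 in Ezh2 -/-, 5.39 ± 3.76 in V617F and 57.3 ± 7.3 in V617F Ezh2 -/- libraries. Its interaction was -2.31 ± 0.40 (adjusted p = 0.00364), from V617F estimates of 1.95 in Ezh2 +/+ and -0.36 in Ezh2 -/- cells. V617F replicate 1 was highest in its group, at 10.7 CPM. Without that library the Rps6ka6 interaction was -1.77 (range over alternatives -2.88 to -1.77, adjusted p 4.15e-06 to 0.0188). Rnf128, a ubiquitin ligase gene, had V617F estimates of 1.16 and -0.60 in Ezh2 +/+ and Ezh2 -/- cells and an interaction of -1.76 ± 0.36 (adjusted p = 0.0099). For Rps4l, a ribosomal protein S4 paralogue whose reads may be shared with its relatives, the interaction was -1.68 ± 0.47 (adjusted p = 0.0232). Scd1, the stearoyl-CoA desaturase gene, had -1.30 ± 0.44 (adjusted p = 0.0397) and passed in 11 of 27 alternatives.

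Most of the 34 genes called lower in all alternatives had one shape. In 32 of them both single changes had positive estimates against the controls, and in 28 the control group had the lowest of the 4 means. Among them, chosen here after their values were seen, Ugt8a, a glycolipid synthesis enzyme, measured 3.67 ± 0.555 CPM in controls, 31.3 ± 3.8 in Ezh2 -/-, 7.22 ± 0.947 in V617F and 22.3 ± 2.05 in V617F Ezh2 -/- libraries, with an interaction of -1.45 ± 0.26 (adjusted p = 0.00468). Mpped2, a metallophosphoesterase gene, had 0.163 ± 0.0616 CPM in controls, 5.39 ± 1.04 in Ezh2 -/-, 1.11 ± 0.207 in V617F and 6.39 ± 1.38 in V617F Ezh2 -/- libraries and an interaction of -2.50 ± 0.37 (adjusted p = 0.0009). Apln encodes the peptide ligand apelin and measured 0.637 ± 0.128 CPM in controls, 4.4 ± 0.567 in Ezh2 -/-, 0.822 ± 0.203 in V617F and 1.71 ± 0.217 in V617F Ezh2 -/- libraries, with an interaction of -1.74 ± 0.29 (adjusted p = 0.00312). For Me1, the cytosolic malic enzyme, the levels were 0.159 ± 0.115 CPM in controls, 5.08 ± 0.476 in Ezh2 -/-, 0.502 ± 0.165 in V617F and 3.15 ± 1.14 in V617F Ezh2 -/- libraries and the interaction was -2.28 ± 0.44 (adjusted p = 0.00675). Of the 57 called higher in all alternatives, 51 had negative estimates for both single changes and 34 had the highest mean in controls. These 91 genes were picked by the same contrast, so the counts describe them and test nothing.

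Cdkn2a, the locus of the cell cycle inhibitors p16 and p19ARF and a classical PRC2 target, had the largest negative estimate among the named genes, and it depended on 1 library. It measured 8.07, 5.71, 8.33 and 4.08 CPM in Ezh2 -/- libraries and ranged from 1.35 to 3.75 CPM (median 1.75) with both changes. Controls held at most 0.0331 CPM, under the 3-count floor, and the V617F libraries 1.04, 0, 0.0435 and 0.0456 CPM. The interaction was -5.43 ± 1.16 (adjusted p = 0.0121) with all libraries and -2.40 (adjusted p = 0.121) without V617F replicate 1, whose sex markers did not match its label. The adjusted p ran from 0.00129 to 0.121 over the alternatives. With both Ezh2 +/+ groups near the floor, the size of this interaction depends on the prior count of the fit. What can be read from the levels is the mean of 6.55 ± 2.03 CPM in Ezh2 -/- and 2.11 ± 0.889 CPM in V617F Ezh2 -/- libraries, ranges that did not overlap. Of the 7 CDK inhibitor genes, 3 passed lower (42.9%, against 10.6% of all genes) and 1 higher (14.3%, against 8.47%). Cdkn2c, which encodes p18INK4c, measured 19.5 ± 1.28 CPM in controls, 30.5 ± 1.95 in Ezh2 -/-, 20.3 ± 0.978 in V617F and 19.969 ± 2.74 in V617F Ezh2 -/- libraries, with an interaction of -0.68 ± 0.14 (adjusted p = 0.0111). Cdkn2b passed at -1.57 ± 0.53 (adjusted p = 0.0406) with its controls near the floor, and Cdkn1b, the p27 gene, was the 1 called higher, at 0.45 ± 0.14 (adjusted p = 0.0306). Cdkn2b passed in 14 and Cdkn1b in 16 of the 27 alternatives, and both missed the threshold without control replicate 1, without control replicate 5 and without Ezh2 -/- replicate 3.

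Of 20 genes of serine synthesis and of the amino acid stress response under ATF4, 9 (45%) were called lower and 0 higher, against 10.6% and 8.47% of all genes, and their median interaction was -0.49 log2 against 0.03. The list's median V617F estimate was 0.33 in Ezh2 +/+ and -0.22 in Ezh2 -/- cells. The 3 enzymes that make serine from a glycolytic intermediate all passed. Psph, the last of them, measured 24.9, 26.1, 27.2, 26.4 and 24.6 CPM in controls and 33.2, 30.9, 39.8 and 38.7 CPM in Ezh2 -/- libraries. It measured 33, 31.4, 34.9 and 33.3 CPM in V617F libraries and ranged from 27.4 to 30.9 CPM (median 29.2) with both changes. The controls lay below all other libraries, and the doubly changed group lay between the controls and the V617F group, touching the lowest Ezh2 -/- library. Its interaction was -0.64 ± 0.10 (adjusted p = 0.00123) and passed in all 27 alternatives. Psat1, the transaminase of the pathway, had 181 ± 17.3 CPM in controls, 197 ± 20.4 in Ezh2 -/-, 223 ± 11.7 in V617F and 163 ± 16.6 in V617F Ezh2 -/- libraries and an interaction of -0.56 ± 0.13 (adjusted p = 0.0138). For Phgdh, the first enzyme, the levels were 142 ± 14.4 CPM in controls, 157 ± 15.1 in Ezh2 -/-, 154 ± 11.3 in V617F and 119.6 ± 7.84 in V617F Ezh2 -/- libraries and the interaction -0.49 ± 0.12 (adjusted p = 0.0155). Both passed in 26 alternatives. Shmt2 (-0.47) and Mthfd2 (-0.93), mitochondrial one-carbon enzymes, Asns (-0.82), the asparagine synthetase, Cth (-0.79), Slc7a11 (-0.95) and Trib3 (-1.85) were the other members called lower. The lower count of this list moved past 1.5 times its size in 3 of the 19 fits without 1 library, and it was 4 without control replicate 1 or Ezh2 -/- replicate 3 and 5 without control replicate 5. It was 1 in female libraries, 8 with cell type scores as covariates, 8 with a replicate block and 6 without control replicate 5 and V617F replicate 1 together. At an unadjusted p under 0.05 there were 13 members in either direction, and DESeq2 called 0 higher and 10 lower.

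Cell cycle genes also leaned lower, by small amounts. Of 40 tested, 16 (40%, against 10.6% of all genes) were called lower and 1 higher (2.5%, against 8.47%). The median was -0.33 log2, against 0.03 over all genes. The mean log2 CPM of the list was highest in Ezh2 -/- libraries (7.60 to 7.71). It was 7.24 to 7.47 in controls, 7.31 to 7.49 in V617F and 7.26 to 7.52 in V617F Ezh2 -/- libraries, so the Ezh2 -/- group stood above the 3 others. Ccne1, the cyclin of S phase entry, measured 131 ± 15.8 CPM in controls, 179 ± 20.7 in Ezh2 -/-, 164 ± 28.2 in V617F and 115 ± 19.2 in V617F Ezh2 -/- libraries, with an interaction of -0.95 ± 0.25 (adjusted p = 0.0195). Pcna, the sliding clamp of DNA polymerase, had 389 ± 23.9 CPM in controls, 497 ± 44.5 in Ezh2 -/-, 446 ± 26.9 in V617F and 420.4 ± 28.3 in V617F Ezh2 -/- libraries and -0.44 ± 0.10 (adjusted p = 0.0126). Rrm1, a subunit of ribonucleotide reductase, had an interaction of -0.50 ± 0.13 (adjusted p = 0.0201). The exception was Cdk6, a kinase of G1 phase, at 0.45 ± 0.16 (adjusted p = 0.0454). The lower count of this list moved past 1.5 times its size in 8 of the 19 fits without 1 library, and it was 1 without Ezh2 -/- replicate 3, 2 without control replicate 1, 7 without control replicate 5, V617F replicate 3 or V617F replicate 4, 8 without V617F Ezh2 -/- replicate 2, 9 without Ezh2 -/- replicate 1 and 10 without V617F Ezh2 -/- replicate 4. It was 0 in female libraries, 10 with cell type scores as covariates, 7 with a replicate block and 18 without control replicate 5 and V617F replicate 1 together. At an unadjusted p under 0.05 there were 27 members in either direction, and DESeq2 called 1 higher and 21 lower.

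Interferon-stimulated genes formed a large list with many higher calls. Of 43 tested, 26 (60.5%) were called higher and 0 lower, against 8.47% and 10.6% of all genes, and all 43 estimates were positive, with a median of 1.08 log2. The median V617F estimate was -0.46 in Ezh2 +/+ and 0.59 in Ezh2 -/- cells. Mx2, an antiviral GTPase, measured 2.15, 2.5, 1.81, 1.38 and 4.13 CPM in controls and 1.26, 1.38, 1.17 and 1.25 CPM in Ezh2 -/- libraries. The V617F libraries had 0.855, 0.919, 1.31 and 0.844 CPM, and the group with both changes ranged from 2.05 to 4.48 CPM (median 2.6). Both singly changed groups thus lay below all controls except the lowest, which 1 Ezh2 -/- library passed by a narrow margin, and the doubly changed group lay above both and overlapped the controls. The interaction was 2.47 ± 0.44 (adjusted p = 0.00479), between 1.66 and 2.70 over all 27 alternatives, which all called it. Mx1, its paralogue, measured 0.891 ± 0.313 CPM in controls, 0.381 ± 0.126 in Ezh2 -/-, 0.351 ± 0.159 in V617F and 0.863 ± 0.329 in V617F Ezh2 -/- libraries, with an interaction of 2.46 ± 0.54 (adjusted p = 0.0125). Because Mx1 and Mx2 resemble each other, reads could be split between them in a way the sources do not describe. For Ifi27l2a, a small interferon-induced membrane protein gene, the levels were 0.917 ± 0.609 CPM in controls, 0.557 ± 0.112 in Ezh2 -/-, 0.205 ± 0.0795 in V617F and 1.97 ± 0.788 in V617F Ezh2 -/- libraries and the interaction was 3.76 ± 0.75 (adjusted p = 0.00901). Oas2, an oligoadenylate synthetase that senses double-stranded RNA, had 2.61 ± 0.67 (adjusted p = 0.0195), and Rtp4 had 1.86 ± 0.49 (adjusted p = 0.0201). Irf9 and Stat2 encode parts of the transcription complex of the type I interferon response. Irf9 passed at 0.79 ± 0.18 (adjusted p = 0.0126) and Stat2 at 0.57 ± 0.14 (adjusted p = 0.0176).

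Many promoters of this group carry the interferon-stimulated response element, to which that complex binds. The 250 bases before the start of 3 members called higher are printed from RefSeq, build GRCm38.p6, chosen from the called members with a match after their values were seen. Matches to the core of that element, GAAA and GAAA with any 2 bases between them on either strand, are in capitals. Isg15, a ubiquitin-like antiviral modifier, lies at chr4:156200819-156201068 on the minus strand. Ifit1, which binds foreign RNA ends, lies at chr19:34640639-34640888 on the plus strand. Rsad2, which encodes viperin, lies at chr12:26456453-26456702 on the minus strand.
Isg15: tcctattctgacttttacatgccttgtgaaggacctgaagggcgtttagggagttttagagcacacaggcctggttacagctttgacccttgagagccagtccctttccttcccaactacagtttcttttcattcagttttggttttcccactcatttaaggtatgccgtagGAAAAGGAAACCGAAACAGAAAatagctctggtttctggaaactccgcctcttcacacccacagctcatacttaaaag
Ifit1: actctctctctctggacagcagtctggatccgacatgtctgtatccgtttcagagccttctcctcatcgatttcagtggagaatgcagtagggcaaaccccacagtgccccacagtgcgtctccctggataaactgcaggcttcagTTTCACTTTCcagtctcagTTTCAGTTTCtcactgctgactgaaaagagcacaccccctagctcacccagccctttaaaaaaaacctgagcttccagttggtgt
Rsad2: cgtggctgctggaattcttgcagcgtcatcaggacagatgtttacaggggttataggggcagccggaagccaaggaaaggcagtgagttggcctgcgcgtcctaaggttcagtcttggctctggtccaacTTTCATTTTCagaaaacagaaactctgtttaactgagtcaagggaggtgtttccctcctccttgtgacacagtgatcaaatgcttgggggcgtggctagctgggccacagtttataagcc
Isg15 held 3 matches that overlap one another, Ifit1 held 2 and Rsad2 held 1. Of the 43 members 30 had an entry, with 34 promoters, and 15 of these (44.1%) held the motif. It was found in 978 of all 32851 promoters (2.98%) and in 370 of the 13896 promoters (2.66%) of genes tested. It was in 57 of 1237 promoters (4.61%) of genes called higher and in 45 of 1419 (3.17%) of genes called lower. For genes called in all 27 alternatives, it was in 1 of 70 promoters (1.43%) of those called higher and 0 of 40 of those called lower. Among the 26 members called higher, 14 had an entry, and 8 of their 16 promoters held it. The STAT motif TTCNNNGAA, which reads alike on both strands and was counted separately, was in 6 of the 34 promoters (17.6%) and in 7.02% of all, and in 1 of the 16 promoters (6.25%) of the members called higher. A match describes letters in this window and no more. Isg15 measured 6, 7.96, 6.82, 6.09 and 13.7 CPM in controls, 6.49, 5.85, 7.23 and 5.84 in Ezh2 -/- and 3.19, 4.84, 4.57 and 4.49 in V617F libraries, and ranged from 7.61 to 12.2 CPM (median 8.1) with both changes. Its interaction was 1.37 ± 0.39 (adjusted p = 0.0241). Ifit1 had 2.005 ± 0.53 (adjusted p = 0.0201), and Rsad2 had 1.24 ± 0.41 (adjusted p = 0.0375). In all 3, control replicate 5 was the highest control.

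The interferon list had mean log2 CPM of 3.54 to 4.55 in controls, 3.48 to 3.67 in Ezh2 -/-, 3.20 to 3.55 in V617F and 3.99 to 4.68 in V617F Ezh2 -/- libraries. Control replicate 5 stood at the top of the control range, and the other 4 controls lay between 3.54 and 3.74, below all 6 libraries with both changes. The higher count of this list moved past 1.5 times its size in 6 of the 19 fits without 1 library, and it was 4 without Ezh2 -/- replicate 3, 10 without V617F replicate 4, 11 without control replicate 1, 13 without control replicate 5, 16 without V617F Ezh2 -/- replicate 2 and 17 without V617F replicate 2. It was 5 in female libraries, 5 with cell type scores as covariates, 12 with a replicate block and 18 without control replicate 5 and V617F replicate 1 together. At an unadjusted p under 0.05 there were 36 members in either direction, and DESeq2 called 29 higher and 0 lower. The members called in all 27 alternatives were Mx1, Mx2, Ifi27l2a and Irf9.

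**Figure D4:**
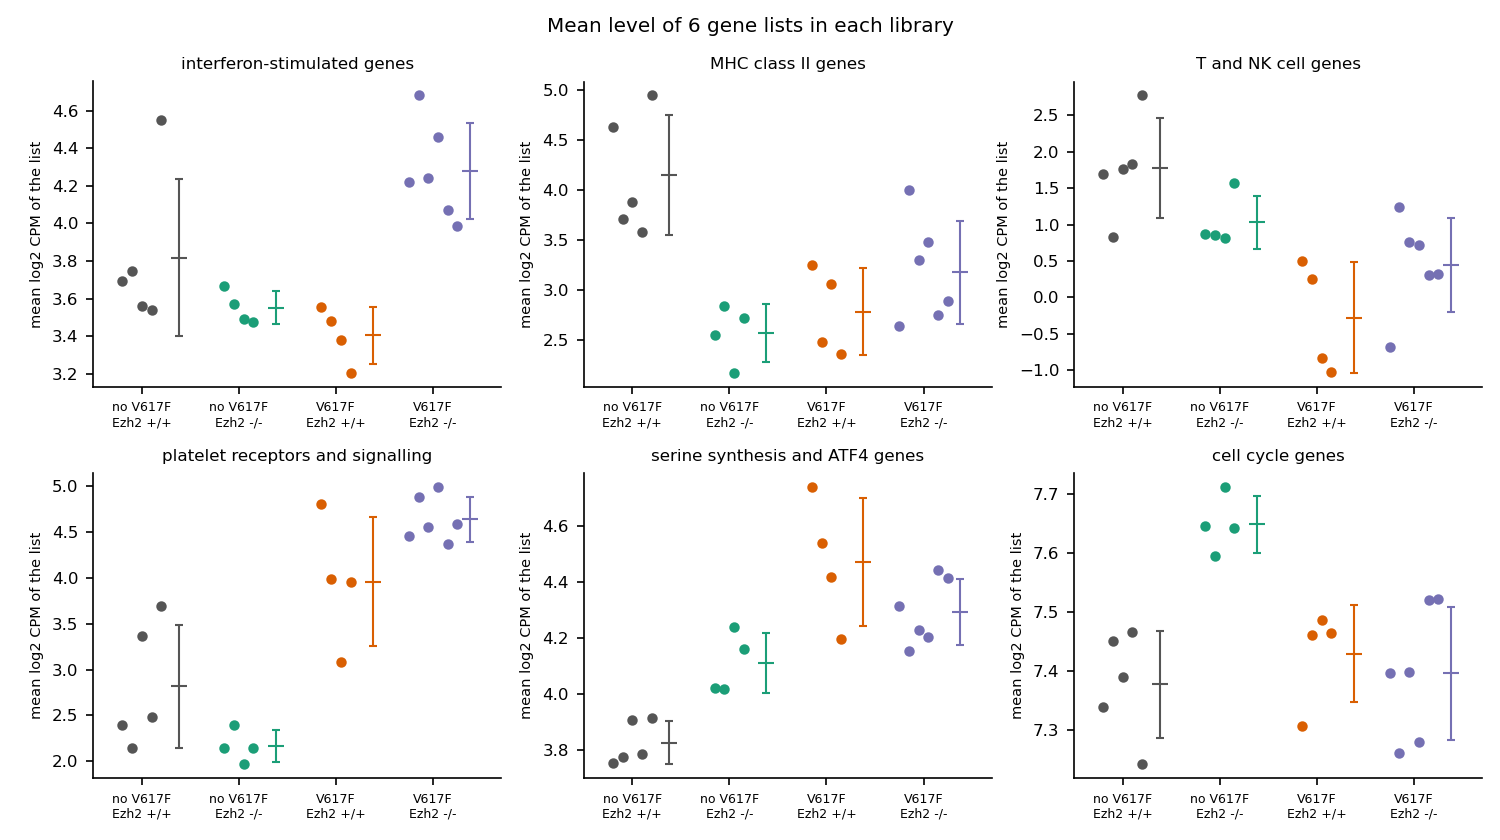
Mean log2 CPM of 6 gene lists (y axis) in each library of the 4 genotypes (x axis); points are libraries, and the bar and whiskers beside them are the mean and SD. The interferon-stimulated list is at 3.99 or above in all 6 libraries with both changes and at 3.74 or below in all others except control replicate 5, while MHC class II and T and NK cell lists have their highest library among controls.

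MHC class II genes, which present antigen to helper T cells, also had positive interactions. Of 9 tested, 7 (77.8%) were called higher and 0 lower, against 8.47% and 10.6% of all genes, with a median of 2.68 log2. In Cd74, H2-Aa, H2-Eb1 and Ciita the controls had the highest mean, whereas H2-Ob was highest with both changes. Cd74, the invariant chain, measured 161, 71, 72.3, 56 and 179 CPM in controls and 23.1, 30.6, 15.8 and 33.2 CPM in Ezh2 -/- libraries. V617F libraries had 18.8, 11.9, 31.5 and 11.2 CPM, and those with both changes ranged from 9.27 to 60.2 CPM (median 27.1). All controls but the lowest stood above every mutant library. V617F thus had an estimate of -2.55 ± 0.54 in Ezh2 +/+ and 0.28 ± 0.49 in Ezh2 -/- cells, and the interaction was 2.83 ± 0.73 (adjusted p = 0.0195). H2-Aa (2.72 ± 0.74, adjusted p = 0.0219) and H2-Eb1 (2.68 ± 0.73, adjusted p = 0.0222), chains of the class II molecule, and Ciita (3.06 ± 0.69, adjusted p = 0.0126), the factor that turns these genes on, followed. Ciita measured 7.71 ± 3.86 CPM in controls, 1.31 ± 0.28 in Ezh2 -/-, 1.73 ± 0.757 in V617F and 2.45 ± 1.41 in V617F Ezh2 -/- libraries. H2-DMb2 passed at 2.96 ± 0.73 (adjusted p = 0.0174) and H2-Ob at 2.21 ± 0.55 (adjusted p = 0.0176). H2-Ob measured 10.2, 6.42, 9.46, 6.61 and 17.8 CPM in controls, 3.8, 4.1, 2.25 and 4.62 CPM in Ezh2 -/- and 14.6, 7.4, 6.01 and 8.62 CPM in V617F libraries, and ranged from 12.6 to 21.1 CPM (median 16.1) with both changes. H2-Eb2, outside the list and picked after its value was seen, was called in all alternatives, at 3.60 ± 0.79 (adjusted p = 0.0125), with 2.17 ± 1.09 CPM in controls, 0.329 ± 0.165 in Ezh2 -/-, 0.437 ± 0.242 in V617F and 0.762 ± 0.516 in V617F Ezh2 -/- libraries. The higher count of this list moved past 1.5 times its size in 3 of the 19 fits without 1 library, and it was 1 without Ezh2 -/- replicate 3, 3 without control replicate 1 and 4 without V617F replicate 4. It was 1 in female libraries, 1 with cell type scores as covariates, 6 with a replicate block and 8 without control replicate 5 and V617F replicate 1 together. At an unadjusted p under 0.05 there were 9 members in either direction, and DESeq2 called 8 higher and 0 lower. The class I gene H2-K2 was called in all alternatives, at 1.15 ± 0.21 (adjusted p = 0.00484), with 7.06 ± 0.931 CPM in controls, 4.34 ± 0.487 in Ezh2 -/-, 3.42 ± 0.327 in V617F and 4.71 ± 0.24 in V617F Ezh2 -/- libraries.

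Markers of other blood cells were read against the shares over all genes, 8.47% called higher and 10.6% lower. In sorted bulk RNA, fewer cells of a type and less RNA per cell cannot be told apart. The 27 T and NK cell genes tested had mean log2 CPM of 0.83 to 2.77 in controls, 0.81 to 1.58 in Ezh2 -/-, -1.02 to 0.50 in V617F and -0.68 to 1.23 in V617F Ezh2 -/- libraries, and 8 were called higher (29.6%), 0 lower. Among the 19 fits without 1 library the higher count ran from 1, without control replicate 1, Ezh2 -/- replicate 3 or V617F replicate 4, to 15, without Ezh2 -/- replicate 4, and 9 of them moved it past 1.5 times its size. Without both control replicate 5 and V617F replicate 1 it was 6. Female libraries alone gave 1, and DESeq2 called 9 higher and 0 lower. An unadjusted p under 0.05 was reached by 11 of the 27 members, near the share over all genes (5397 of 13928). Bcl11b, a T cell transcription factor, measured 1.09 ± 0.598 CPM in controls, 0.354 ± 0.0683 in Ezh2 -/-, 0.141 ± 0.11 in V617F and 0.633 ± 0.317 in V617F Ezh2 -/- libraries, with an interaction of 3.75 ± 0.64 (adjusted p = 0.00347). Tcf7 had 2.45 ± 0.67 (adjusted p = 0.0222). The defining genes were low, with Cd3e at 2.63 ± 1.7 CPM in controls and 0.11 ± 0.0706 with both changes, and Cd8b1 was at 0 counts in all V617F libraries. Cd3e passed in 0 of the 27 alternatives, Cd3d in 1 and Cd3g in 15. For 16 B cell genes the ranges were -1.71 to 0.41, -0.67 to 1.15, -2.40 to -1.56 and -1.86 to 1.61 in the same order, and 3 passed higher (18.8%), Cd79a (2.54 ± 0.78, adjusted p = 0.0308), Blk and Fcer2a. The 24 monocyte, macrophage and dendritic genes had 2.02 to 3.54, 1.5003 to 2.08, 0.99 to 1.79 and 0.14 to 2.02. Of these 2 were higher (8.33%, near the share over all genes), Klf4 and Ly86. Csf1r, the defining receptor of that lineage, measured 13.7 ± 7.46 CPM in controls, 6.68 ± 2.06 in Ezh2 -/-, 2.43 ± 0.816 in V617F and 2.82 ± 1.73 in V617F Ezh2 -/- libraries and did not pass (adjusted p = 0.306). No list member of the B cell or monocyte lists was at 0 in all libraries of a group. The fit with cell type scores took in the T and NK cell list but not the B cell or monocyte lists, and the part of B cells and monocytes in the MHC class II and interferon results was not tested.

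Stem and multipotent progenitor genes had mean log2 CPM of 1.98 to 3.65 in controls, 1.68 to 2.07 in Ezh2 -/-, 2.54 to 4.46 in V617F and 3.40 to 4.45 in V617F Ezh2 -/- libraries. V617F replicate 1 was highest in its group. Of 29 tested, 4 were higher (13.8%, against 8.47% of all genes) and 1 lower (3.45%, against 10.6%). They were Flt3, Sox4, Cd48 and Spi1, with Mllt3 lower. Among the 19 fits without 1 library the higher count ran from 2, without control replicate 1, control replicate 5, Ezh2 -/- replicate 1, Ezh2 -/- replicate 3, V617F replicate 2, V617F replicate 4, V617F Ezh2 -/- replicate 2 or V617F Ezh2 -/- replicate 4, to 13, without V617F replicate 1, and 12 of them moved it past 1.5 times its size. Without both control replicate 5 and V617F replicate 1 it was 11. Female libraries alone gave 2, DESeq2 called 10 higher and 1 lower, and 15 members had an unadjusted p under 0.05. Cd48 measured 21.8 ± 5.8 CPM in controls, 19.1 ± 1.16 in Ezh2 -/-, 17 ± 2.86 in V617F and 33.4 ± 4.47 in V617F Ezh2 -/- libraries, with 1.11 ± 0.23 (adjusted p = 0.0117), and Sox4, a transcription factor of early progenitors, had 61.1 ± 18.4 CPM in controls, 27.5 ± 6.39 in Ezh2 -/-, 45.3 ± 7.03 in V617F and 50.1 ± 6.56 in V617F Ezh2 -/- libraries and 1.25 ± 0.28 (adjusted p = 0.0125). Both were called in all alternatives. Of 13 mast cell and basophil genes tested, 1 passed (7.69%, near the 8.47% of all genes). It was Fcer1a, at 4.76 ± 1.19 (adjusted p = 0.018), with low levels throughout (0.458 ± 0.643 CPM in controls, 0.0206 ± 0.0412 in Ezh2 -/-, 0.603 ± 0.313 in V617F and 0.933 ± 0.5264 in V617F Ezh2 -/- libraries). With its Ezh2 -/- libraries at or near the floor, the size of the Fcer1a value depends on the prior count of the fit. Prss34 was at 0 in all controls. Neutrophil granule genes had list levels of 0.09 to 1.61 in controls, -0.83 to 0.79 in Ezh2 -/-, 3.24 to 4.13 in V617F and 1.44 to 4.42 in V617F Ezh2 -/- libraries, and none of the 23 tested passed by edgeR (1, Padi4, at an unadjusted p under 0.05) or by DESeq2. S100a8 measured 9.3 ± 4.07 CPM in controls, 6.36 ± 3.75 in Ezh2 -/-, 113 ± 34.6 in V617F and 99.7 ± 60.1 in V617F Ezh2 -/- libraries, and its V617F estimates were 3.49 and 3.73 log2 in Ezh2 +/+ and Ezh2 -/- cells, an interaction of 0.25 ± 0.71 (adjusted p = 0.81).

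Cytokine receptors were called higher in 7 of 19 cases (36.8%) and lower in 0, against 8.47% and 10.6% of all genes, with a median of 1.22 log2. Il18r1, a chain of the interleukin-18 receptor, measured 7.05, 3.86, 4.53, 3.31 and 7.06 CPM in controls and 2.05, 2.9, 1.14 and 3.67 CPM in Ezh2 -/- libraries. V617F libraries had 3.63, 1.52, 1.13 and 1.39 CPM, and with both changes it ranged from 7.1 to 17 CPM (median 9.86). The interaction was 3.60 ± 0.61 (adjusted p = 0.00347), called in all alternatives. All 6 libraries with both changes lay above all others. Among the 19 fits without 1 library the higher count ran from 2, without Ezh2 -/- replicate 3, to 11, without V617F replicate 1, and 8 of them moved it past 1.5 times its size. Without both control replicate 5 and V617F replicate 1 it was 8. Female libraries alone gave 2, DESeq2 called 8 higher and 0 lower, and 11 members had an unadjusted p under 0.05. Il6ra (3.03 ± 0.72, adjusted p = 0.0155) and Il2rg (0.82 ± 0.18, adjusted p = 0.0125) encode chains of the interleukin-6 and common gamma receptors. Epor, the erythropoietin receptor gene, did not pass, at -0.27 ± 0.17 (adjusted p = 0.223). Of the 11 JAK kinases and STAT factors 4 were higher (36.4%, against 8.47% of all genes). Jak2, Jak3 and Stat2 were among them. Jak2, whose counts do not tell a mutant from a normal allele, measured 209.8 ± 9.89 CPM in controls, 177 ± 9.65 in Ezh2 -/-, 231 ± 10.033 in V617F and 237 ± 6.65 in V617F Ezh2 -/- libraries, with an interaction of 0.28 ± 0.07 (adjusted p = 0.0189), and it passed in 24 of 27 alternatives. Among 23 JAK-STAT5 targets 4 passed, all higher (17.4%, against 8.47% of all genes), with a median of 0.14 log2. They were Bcl2a1b, whose reads may be shared with its close copies, Myc (0.69 ± 0.16, adjusted p = 0.0131), Pim1 (1.02 ± 0.26, adjusted p = 0.0185) and the feedback inhibitor Socs1 (1.83 ± 0.53, adjusted p = 0.0255), the last with 1.07 ± 0.438 CPM in controls, 0.589 ± 0.163 in Ezh2 -/-, 0.812 ± 0.112 in V617F and 1.66 ± 0.465 in V617F Ezh2 -/- libraries.

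Platelet gene lists had positive median V617F estimates in both Ezh2 genotypes, with the larger median without Ezh2. Of 29 platelet receptor and signalling genes, 7 (24.1%) passed higher and 0 lower, against 8.47% and 10.6% of all genes. The list had a median interaction of 1.48 log2 and median V617F estimates of 1.03 in Ezh2 +/+ and 2.55 in Ezh2 -/- cells. Itgb3, the integrin beta 3 chain of the platelet fibrinogen receptor, measured 8.83, 5.72, 30.5, 8.75 and 33.7 CPM in controls and 3.84, 5.52, 3.39 and 6.92 CPM in Ezh2 -/- libraries. In V617F libraries it had 84.5, 37.2, 17.5 and 49.3 CPM, and with both changes it ranged from 54.9 to 105 CPM (median 74.5). The controls and the V617F group were each widely spread and overlapped, and the doubly changed group overlapped V617F replicate 1 alone. Its interaction of 2.29 ± 0.76 (adjusted p = 0.0395) passed in 12 of 27 alternatives. F2r, a thrombin receptor, measured 144 ± 40.1 CPM in controls, 100.4 ± 18.5 in Ezh2 -/-, 166 ± 49.996 in V617F and 377 ± 42.9 in V617F Ezh2 -/- libraries, with 1.66 ± 0.38 (adjusted p = 0.0126), and P2ry1, an ADP receptor, had 0.96 ± 0.22 (adjusted p = 0.0126). Both passed in 26. Slc35d3, needed for platelet dense granules, had 11.2 ± 6.11 CPM in controls, 3.76 ± 1.23 in Ezh2 -/-, 25.4 ± 11.5 in V617F and 53.8 ± 10.5 in V617F Ezh2 -/- libraries and 2.54 ± 0.60 (adjusted p = 0.015). Of the 29 granule and cytoskeleton genes 7 were higher and 3 lower (24.1 and 10.3%), the lower share being near that of all genes. The lower ones were Plek2, Vamp8 (-0.37 ± 0.07, adjusted p = 0.00778) and Itgb1 (-0.33 ± 0.09, adjusted p = 0.0204). Thbs1, the granule protein thrombospondin-1, measured 1.89 ± 1.28 CPM in controls, 2.41 ± 0.537 in Ezh2 -/-, 4.19 ± 2.14 in V617F and 25.9 ± 3.96 in V617F Ezh2 -/- libraries, with 2.16 ± 0.64 (adjusted p = 0.0272). Mean log2 CPM of the granule list was 2.31 to 3.71 in controls, 2.32 to 2.66 in Ezh2 -/-, 3.30 to 4.80 in V617F and 4.43 to 4.81 in V617F Ezh2 -/- libraries. Among the 19 fits without 1 library the higher count ran from 0, without control replicate 1 or Ezh2 -/- replicate 3, to 16, without V617F replicate 1, and 10 of them moved it past 1.5 times its size. Without both control replicate 5 and V617F replicate 1 it was 7. Female libraries alone gave 0, DESeq2 called 7 higher and 3 lower, and 14 members had an unadjusted p under 0.05. Lower calls numbered 3 or 4 in all 19 fits. For the receptor list the levels were 2.15 to 3.699 in controls, 1.97 to 2.39 in Ezh2 -/-, 3.09 to 4.81 in V617F and 4.37 to 4.996 in V617F Ezh2 -/- libraries, and in both lists control replicate 5 and V617F replicate 1 were highest in their groups. Among the 19 fits without 1 library the higher count ran from 2, without control replicate 1, control replicate 5, Ezh2 -/- replicate 1, Ezh2 -/- replicate 3, V617F replicate 2, V617F replicate 3, V617F replicate 4 or V617F Ezh2 -/- replicate 2, to 21, without V617F replicate 1, and 12 of them moved it past 1.5 times its size. Without both control replicate 5 and V617F replicate 1 it was 13. Female libraries alone gave 0, DESeq2 called 9 higher and 0 lower, and 22 members had an unadjusted p under 0.05. With cell type scores as covariates, Itgb3 had 0.73 (adjusted p = 0.428) and Thbs1 0.95 (adjusted p = 0.245). F2r (0.91, adjusted p = 0.0177), P2ry1 (0.58, adjusted p = 0.0296) and Slc35d3 (1.36, adjusted p = 0.038) still passed in that fit, with smaller estimates.

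Immediate early and stress genes, which respond within minutes to growth signals and to cell handling, had 25 positive estimates of 25. They had 8 higher calls (32%, against 8.47% of all genes), with a median of 0.92 log2. Egr1, a zinc finger factor, measured 196, 145, 219, 154 and 317 CPM in controls and 84.5, 123, 79.9 and 111 in Ezh2 -/- libraries. V617F libraries had 689.6, 384, 317 and 288 CPM, and with both changes it ranged from 527 to 674 CPM (median 615). The doubly changed group lay above all others except V617F replicate 1. Its V617F estimates were 0.98 and 2.52 log2, and the interaction was 1.54 ± 0.43 (adjusted p = 0.0241). Junb had 0.86 ± 0.23 (adjusted p = 0.0223) and Ier5 0.82 ± 0.23 (adjusted p = 0.0243). The higher count of this list moved past 1.5 times its size in 6 of the 19 fits without 1 library, and it was 0 without Ezh2 -/- replicate 3, 1 without control replicate 1, 2 without control replicate 5 or V617F replicate 4, 4 without V617F replicate 2 and 15 without V617F replicate 1. It was 0 in female libraries, 0 with cell type scores as covariates, 7 with a replicate block and 12 without control replicate 5 and V617F replicate 1 together. At an unadjusted p under 0.05 there were 16 members in either direction, and DESeq2 called 11 higher and 0 lower.

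Dgkz, Kcnab2, Frat2 and Nid1, outside these lists, passed in all 27 alternatives. Dgkz, the diacylglycerol kinase zeta gene, measured 506, 452, 456, 401 and 452 CPM in controls and 323, 339.7, 262 and 295 CPM in Ezh2 -/- libraries. V617F libraries had 317, 281, 346 and 282 CPM, and with both changes it ranged from 308 to 342 CPM (median 324). All 3 mutant groups overlapped and lay below every control, and the interaction was 0.66 ± 0.10 (adjusted p = 0.00141). Kcnab2, a potassium channel subunit gene, measured 196 ± 8.09 CPM in controls, 181 ± 10.6 in Ezh2 -/-, 152 ± 13.8 in V617F and 191 ± 7.85 in V617F Ezh2 -/- libraries, with 0.46 ± 0.08 (adjusted p = 0.00347). Frat2, an inhibitor of GSK3, had 141 ± 8.68 CPM in controls, 90.8 ± 6.12 in Ezh2 -/-, 95.5 ± 10.4 in V617F and 83.1 ± 3.62 in V617F Ezh2 -/- libraries and 0.44 ± 0.08 (adjusted p = 0.00479). Nid1, the basement membrane protein nidogen-1, had 5.17 ± 1.17 CPM in controls, 13.3 ± 3.97 in Ezh2 -/-, 1.38 ± 0.402 in V617F and 8.83 ± 0.94 in V617F Ezh2 -/- libraries. Its V617F estimate was -1.86 in Ezh2 +/+ and -0.44 in Ezh2 -/- cells, and the interaction was 1.42 ± 0.26 (adjusted p = 0.00484).

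Polycomb genes themselves had small interactions, from -0.36 to 0.45 log2 in PRC2 and from -0.31 to 0.49 log2 in PRC1 subunits. An unadjusted p under 0.05 was reached by 7 of 12 PRC2 and 4 of 19 PRC1 subunits, against 5397 of all 13928 genes. Of 12 PRC2 subunits, 1 passed higher and 2 lower (8.33 and 16.7%, against 8.47 and 10.6% of all genes). Ezh1, the other catalytic subunit, measured 35.3 ± 2.78 CPM in controls, 31 ± 3.47 in Ezh2 -/-, 30.3 ± 1.42 in V617F and 36.4 ± 2.28 in V617F Ezh2 -/- libraries, with 0.45 ± 0.12 (adjusted p = 0.0211). The lower ones were Rbbp7 (-0.36 ± 0.11, adjusted p = 0.0337) and Ezh2 itself, at -0.35 ± 0.12 (adjusted p = 0.0425), which passed in 11 of 27 alternatives. The interaction of Ezh2 ran from -0.42 to -0.06 over them, and the 6 libraries with both changes had 51.2 to 59.5 CPM against 67.9 to 79.5 CPM in Ezh2 -/- libraries. Of 19 PRC1 subunits, 2 were higher and 2 lower (10.5% each), near the background, with Phc1 and Phc3 higher and Cbx6 and Yaf2 lower. None of the 18 Hox and TALE genes tested passed by edgeR, 2 had an unadjusted p under 0.05, and DESeq2 called 0 higher and 0 lower. Meis1 had the lowest p, with 1.42 ± 0.56 (adjusted p = 0.0696). Of the 9 fetal-type genes 1 passed, higher (11.1%, near the 8.47% of all genes). It was Arid3a, with 16.7 ± 1.69 CPM in controls, 14.6 ± 1.1 in Ezh2 -/-, 16.4 ± 1.34 in V617F and 24.6 ± 3.21 in V617F Ezh2 -/- libraries and 0.77 ± 0.15 (adjusted p = 0.00901).

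Among 39 erythroid genes 1 was higher and 3 lower (2.56 and 7.69%, against 8.47 and 10.6% of all genes). Among 15 heme synthesis genes 1 was lower (6.67%). Car1, a carbonic anhydrase of early red cell precursors, measured 3451 ± 341 CPM in controls, 3274 ± 699 in Ezh2 -/-, 3273 ± 574 in V617F and 1884 ± 273 in V617F Ezh2 -/- libraries, with -0.69 ± 0.23 (adjusted p = 0.0426). Car2, its relative, had -0.64 ± 0.20 (adjusted p = 0.0343), Cd24a -0.52 ± 0.18 (adjusted p = 0.0464), and Tmem14c, a heme pathway transporter, -0.56 ± 0.17 (adjusted p = 0.0279). Trim58, a ubiquitin ligase of late red cell precursors, went the other way, at 0.79 ± 0.19 (adjusted p = 0.0174). Car1 and Cd24a passed in 11, Car2 in 17, Tmem14c in 20 and Trim58 in 24 of the 27 alternatives, and the 4 lower ones missed the threshold without control replicate 1, without control replicate 5 and without Ezh2 -/- replicate 3. Of 18 erythro-megakaryocytic transcription factors 2 were higher (11.1%, near the 8.47% of all genes). Runx1 measured 74.7 ± 11.4 CPM in controls, 61.4 ± 6.9 in Ezh2 -/-, 81.8 ± 17.9 in V617F and 125 ± 12.1 in V617F Ezh2 -/- libraries, with 0.87 ± 0.24 (adjusted p = 0.0219), and Myb had 0.48 ± 0.11 (adjusted p = 0.0158). Cytosolic ribosomal protein genes had 4 lower calls of 60 (6.67%, under the 10.6% of all genes), Rpl7a, Rpl11, Rpl18 and Rpl27. Their median was -0.09 log2, and their estimates spanned only -0.29 to 0.09.

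Of 25 inflammatory and profibrotic mediators 4 were higher (16%, against 8.47% of all genes), Cxcl9, Il12a, Vegfa and Tgfb1. Tgfb1, the main profibrotic growth factor, measured 231 ± 19.4 CPM in controls, 193 ± 15 in Ezh2 -/-, 203 ± 15.6 in V617F and 255 ± 29.8 in V617F Ezh2 -/- libraries, with 0.58 ± 0.16 (adjusted p = 0.0236). Of 21 extracellular matrix genes 3 were higher (14.3%, against 8.47%), Sparc, Thbs1 and Ltbp1, and 1 lower (4.76%, against 10.6%). Ltbp1, which tethers latent TGF-beta, measured 15.6 ± 2.96 CPM in controls, 17.1 ± 2.93 in Ezh2 -/-, 10.5 ± 1.65 in V617F and 25.9 ± 2.75 in V617F Ezh2 -/- libraries, with 1.17 ± 0.25 (adjusted p = 0.0125). The lower one was Fn1, fibronectin, at -1.89 ± 0.63 (adjusted p = 0.039), and it was -0.98 (adjusted p = 0.156) without V617F replicate 1, with adjusted p from 0.00493 to 0.156 over the alternatives. p53 targets had 4 calls in each direction of 24 (16.7% each, against 8.47% higher and 10.6% lower of all genes). Lower were Bax, Ccng1, Ei24 and Phlda3, the last at -0.65 ± 0.20 (adjusted p = 0.033). Higher were Trp53inp1, Sesn1, Ddit4 and Pmaip1, the last at 1.42 ± 0.35 (adjusted p = 0.0176). Of 12 MAPK feedback genes 3 were lower (25%, against 10.6%), Etv4 (-1.66 ± 0.49, adjusted p = 0.0268), Spry4 (-0.85 ± 0.24, adjusted p = 0.0247) and Etv5 (-0.57 ± 0.19, adjusted p = 0.04). The list as a whole did not lean lower, since 9 of the 12 estimates were positive and the median was 0.14 log2. Etv4 passed in 22, Spry4 in 23 and Etv5 in 11 of the 27 alternatives, and 0 members were called lower in female libraries. Of 7 stromal and endothelial genes tested, 1 was higher (14.3%, against 8.47%), Pdgfrb at 1.65 ± 0.54 (adjusted p = 0.0377). The defining stromal gene Dcn was at 0 counts in all controls and all V617F libraries.

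**Figure D5:**
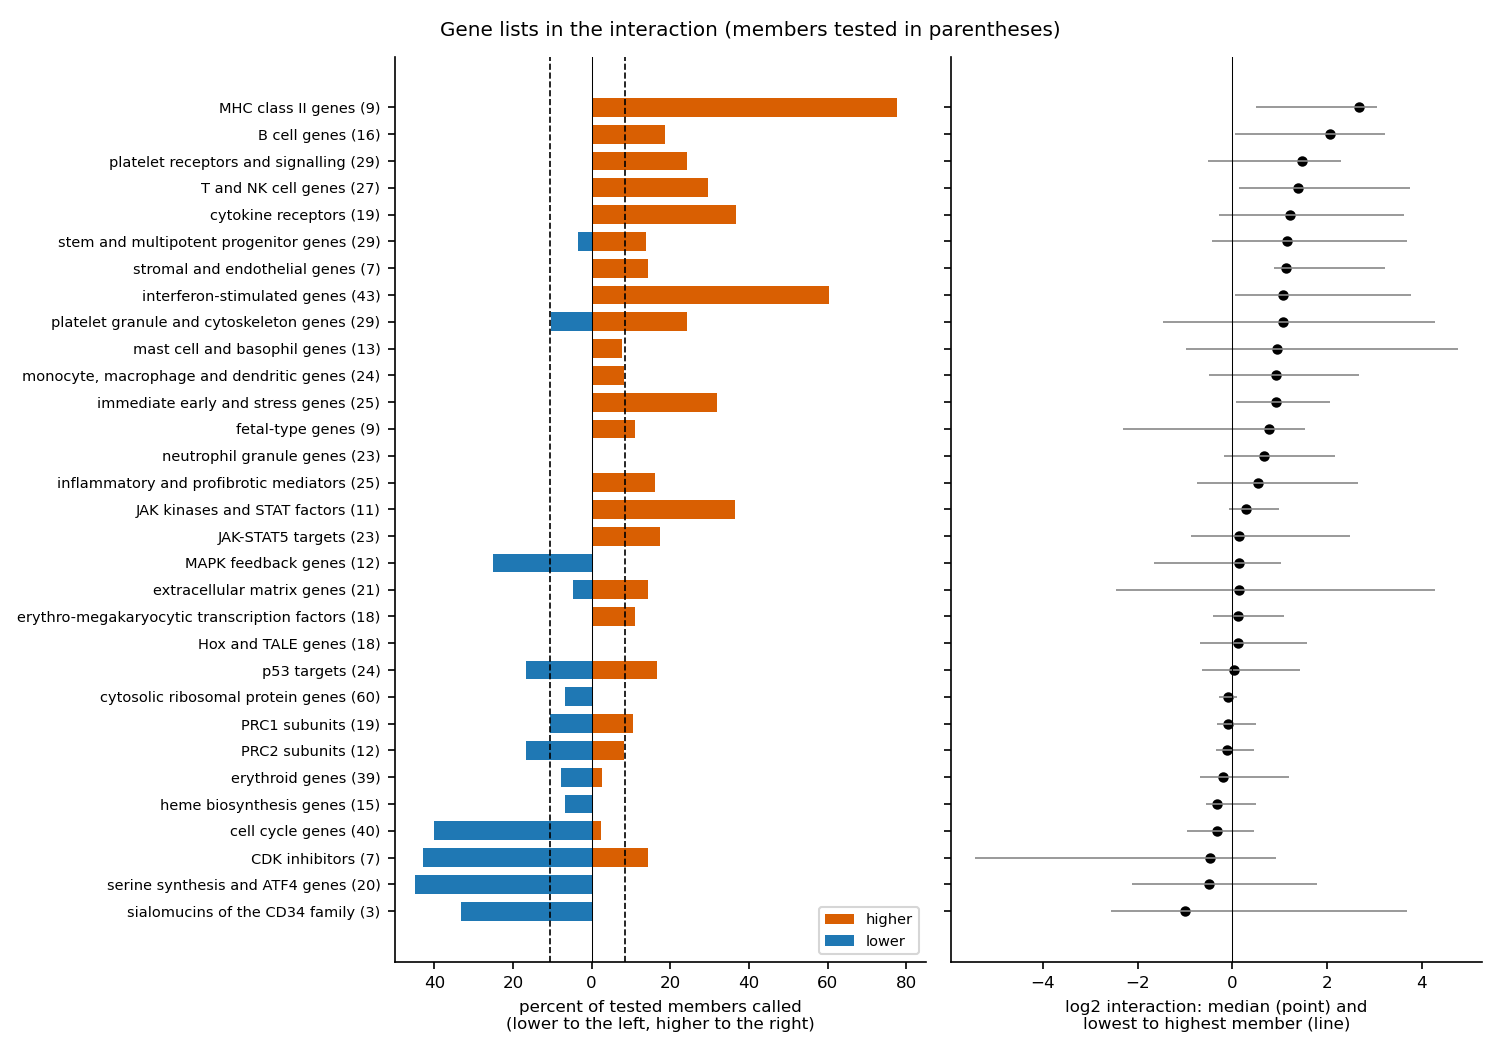
Left, percent of tested members of 31 gene lists (rows, members tested in parentheses) called lower (blue, to the left) or higher (orange, to the right), with dashed lines at the shares over all genes, 10.6 and 8.47%. Right, median log2 interaction of each list (points) with the lowest and highest member (lines); MHC class II genes have the highest median, 2.68, and the 3 sialomucins the lowest, -0.996.

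The levels of the Ezh2 +/- libraries are given as a description. Podxl measured 10.8, 17.3, 12.1 and 17.7 CPM in the 4 Ezh2 +/- libraries without V617F, within or near the control range. The 6 V617F Ezh2 +/- libraries ranged from 169.9 to 295 CPM, overlapping the V617F group. Sdc1 had 7.59, 6.61, 7.21 and 4.96 CPM without V617F, again close to controls, and Rps6ka6 1.67, 2.01, 1.68 and 2.63 CPM against 54.2 to 75.1 CPM in Ezh2 -/- libraries. In all 3 genes the Ezh2 +/- libraries without V617F thus lay far below the Ezh2 -/- libraries without V617F. With V617F, the Podxl ranges of Ezh2 +/- and Ezh2 -/- libraries overlapped. The interferon list spanned 3.34 to 4.51 in Ezh2 +/- libraries, with replicate 5 highest, and 2.83 to 3.99 in V617F Ezh2 +/- libraries.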

How the data were processed

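RNA of 230000 sorted MEPs was taken up in Trizol-LS and made into standard Illumina libraries, per the labels' protocols. STAR and build mm9 are named in the submitters' processing notes; the counting program, annotation and strand setting are not stated there. The deposited table holds read counts per gene identifier, with no further scaling by the authors found in its values. Of 18834 identifiers 18772 matched a gene symbol in the RefSeq gene table. Groups came from the sample titles.

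All 29 libraries were fitted with edgeR 4.0.16 (R 4.3.3, limma 3.58.1) by the robust quasi-likelihood test, with 1 coefficient per genotype group and a term for sex, TMM scaling, and filterByExpr with a count minimum of 10 and a total minimum of 15, which kept 13928 genes. The contrast was (V617F Ezh2 -/- minus Ezh2 -/-) minus (V617F minus control), p-values were adjusted by Benjamini-Hochberg over all genes tested, and a gene was called at an adjusted p under 0.05. The residual degrees of freedom were 22 and the biological coefficient of variation was 18.1%. Standard errors are the estimate over the square root of F. The script was tested on simulated data. No 2 libraries of a group agreed within sampling noise. The smallest chi-square between replicates of the 4 compared groups, divided by its degrees of freedom, was 11.72. It was 4.919 between V617F Ezh2 +/- replicates 3 and 4. A list level is the mean log2 CPM of its tested members, with a prior count of 2.

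Named genes were Ezh2, Jak2, Podxl, Fam124a and Mx2; among called genes whose mean log2 CPM reached 2, the 10 largest interactions and the 5 lowest adjusted p in each direction and up to 5 in each direction with opposite V617F estimates of at least 0.5 in size; and up to 3 called members per list and direction. The members and gene lists were chosen with earlier results of these data known, so the counts on them are not independent support. Alternatives were DESeq2 1.42.0, DESeq2's size factors, no filter, the 4 groups alone, no sex term, female libraries, a replicate block, scores of 3 cell type lists as covariates, and leaving out each library. Promoters came from the RefSeq table for GRCm38.p6, and no coordinates of the 2 builds were mixed. A few genes are not reported here.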

Additional observations from a re-analysis of the deposited data

Results flagged for a closer look

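The V617F effect differed between Ezh2 -/- and Ezh2 +/+ cells, by the test of the difference itself, in 2663 genes. Among the 33 genes whose libraries were checked by Dixon's criterion for a library far from the others of its group, 5 of 132 groups (3.79%) held such a library, at a level that chance passes in about 1 in 20 groups. They were Podxl in control replicate 3 (20.96 CPM, with the other controls at 13.7 to 15.4) and Podxl in Ezh2 -/- replicate 2 (74.69 CPM, with the others of that group at 132 to 134). The remaining ones were Nid1 in control replicate 4 (3.16 CPM), Scd1 in V617F replicate 2 (40.7 CPM) and Tcf7 in Ezh2 -/- replicate 4 (12.99 CPM).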

How the results depend on the processing

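Against 2663 calls (1180 higher, 1483 lower), the 4 groups fitted alone gave 3994 calls, 1818 higher and 2176 lower, and female libraries gave 128 calls, 87 higher and 41 lower. With scores of neutrophil granule, T and NK cell and stem cell lists as covariates there were 1137 calls, 411 higher and 726 lower, of which 722 were among the 2663. Leaving out 1 library gave 297 to 4633 calls, 151 to 2224 higher and 146 to 2409 lower. DESeq2 called 3533 genes (2656 shared), its size factors gave 2732 (2634 shared) and no filter gave 2224. None of the 114 named genes reversed its direction under any alternative, and 85 of them missed the threshold in female libraries, 73 without Ezh2 -/- replicate 3, 60 with the cell type scores, 57 without control replicate 1 and 28 with the replicate block. The cell type scores also moved the median interaction of 18 of the 31 gene lists by at least the median SE of their members. Some of these fits held fewer libraries, and the cause of the shifts was not tested.

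Replicate numbers did not pair the samples: over 25 pairs with the same number the correlation of deviations ran from -0.422 to 0.324 (median -0.0726), and 6 were over 0.1. A fit with the replicate block called 1623 genes, 835 of them lower. Depth of 31.6 to 59.4 M counts limits genes near the floor, such as Cdkn2a in controls.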
